A study of Homo sapiens with 6 samples.

Results

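Heat shock genes were followed in 6 RNA libraries of gemcitabine-resistant Panc-1 cells, 3 labelled shSRSF3 and 3 labelled control. The 10 genes described, HSPA1A, HSPA1B, DNAJB1, HSPH1, HSP90AA1, HSPA8, HSPD1, HSPE1, HSPB1 and BAG3, were taken by symbol from a table of 19912 mRNA rows, and all 10 were found. Panc-1 is a human pancreatic ductal carcinoma line. Both groups are labelled as resistant to gemcitabine, a nucleoside drug, and differ in the treatment label alone, the shSRSF3 samples being titled as a knockdown (KD) of SRSF3. No drug dose, culture time or clone is given for either group. The labels do not say whether the libraries come from separate cultures, so p-values measure the spread between these libraries, which may be technical.

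The heat shock response makes chaperones, proteins that keep other proteins folded. In the cytosol HSP70 proteins (HSPA8, HSPA1A, HSPA1B) bind unfolded stretches, the J-domain protein DNAJB1 delivers clients to them, HSPH1 and BAG3 release their nucleotide, and HSP90 (HSP90AA1) takes over late clients. HSPB1 is a small heat shock protein that holds unfolded proteins in solution. In mitochondria, HSPD1 builds the folding chamber of the chaperonin and HSPE1 is its lid. The factor HSF1 switches many of these genes on, through heat shock elements built from inverted repeats of the unit GAA.

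The sequences before the gene starts were read from RefSeq (GRCh38.p14), in windows of 300 bases with 250 before and 50 after each start. All 10 genes were matched, with 14 windows because some genes have several starts. The shorter form searched, 2 units (GAANNTTC or TTCNNGAA, each its own reverse complement), was in 13.5% of the 35116 windows in the table and in 8 of the 14 windows here. The longer form of 3 units (GAANNTTCNNGAA or its reverse complement TTCNNGAANNTTC, each of which holds the shorter form) was in 0.49% of all windows and in 3 of the 14, those of HSPD1, HSPA8 and HSP90AA1. Windows of 30 bases around these matches are shown because the genes carrying them include the one that passed the test and others that did not; capitals mark the matched units.
HSPD1, chr2:197500061-197500090, minus strand: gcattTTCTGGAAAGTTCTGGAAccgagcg
HSPA8, chr11:123062346-123062375, minus strand: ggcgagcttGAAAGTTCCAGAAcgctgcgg
HSPA8, chr11:123062171-123062200, minus strand: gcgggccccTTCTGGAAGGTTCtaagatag
HSP90AA1, chr14:102087112-102087141, minus strand: ggagggttcTTCCGGAAGGTTCgggaggct
In HSPD1 the 2 matches overlap and form an unbroken run, which lies in the window of the gene's downstream start. No 3-unit match lay in the windows of the other genes, which says only that these letters are not in those windows.

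HSPD1 and HSPE1 start head to head on chromosome 2 and share the stretch between their starts. It is shown because these neighbours are compared below; it holds no match to either form.
HSPD1 to HSPE1, chr2:197500275-197500378, plus strand: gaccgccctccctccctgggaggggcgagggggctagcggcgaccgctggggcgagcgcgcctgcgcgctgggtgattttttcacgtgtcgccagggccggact

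The deposited values are FPKM, which divides a gene's fragments by its length and by the size of the library. The steps that whole fragments leave in the low values gave totals of 24558238 to 27351642 fragments per library, and 99.7% of the tested rows were whole fragment numbers within 0.003. SRSF3, the splicing factor named in the label, stood at 36.9, 37.1 and 38.6 FPKM in the shSRSF3 libraries, against 37.0, 39.6 and 39.2 FPKM in controls. Its log2 change was -0.04 (SE 0.05, limma adjusted p = 0.612), with p = 0.3 in an exact permutation test whose smallest possible p is 0.1. The label is therefore used below as a name only, since SRSF3 was not detectably lower. Of the line's fixed markers, KRT8, KRT18, KRT19 and SOX9 were at 109.04 FPKM or more in each library, while KRT7 reached at most 0.241 FPKM. VIM, which Panc-1 is known to express, reached at most 0.0389 FPKM. The 17 markers of other cells summed to between 1.03 and 1.96 FPKM in shSRSF3 libraries and between 1.38 and 2.27 FPKM in controls, with 4 at 0 in each library.

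HSPD1, the mitochondrial chaperonin, was the only heat shock gene called among the 8 that could be tested. Its mean rose by 17.7% in the shSRSF3 libraries. The 7 others tested, which include the cytosolic HSP70, HSP90, J-domain and small heat shock genes, were not past the threshold, and HSPA1A and HSPA1B were below the filter of a mean of 0.5 FPKM. The test was limma on log2(FPKM + 1) over 10823 rows, with Benjamini-Hochberg adjustment and a threshold of 0.05. Among all tested rows 10.9% were called higher and 5.91% lower. Of the 8 heat shock genes, 1 was higher (12.5%) and 0 were lower. The count lower was also 0 at an unadjusted p under 0.05 and by limma voom on whole fragments. That background includes weakly expressed genes, whereas each of the 8 averaged 27.3 FPKM or more. Raising the filter to 5 FPKM left 6311 rows, of which 1207 were called higher and 459 lower. There too 1 of the 8 was higher and 0 were lower. The median log2 change of the 8 was 0.09, against 0.02 for all tested rows and 0.05 with the raised filter. Whether the 8 differ from either background was not tested. All 8 log2 changes were above 0 as deposited, but after quantile normalization 3 were (HSPD1, BAG3 and HSPB1) and HSPD1 was no longer called. Over all tested rows that normalization moved the share of higher calls among all calls to 50.3%, against 64.8% as deposited. The values of the 8 genes also varied more among the shSRSF3 libraries, with a coefficient of variation of 4.24% to 22.9%, against 1.14% to 4.46% among controls. It was larger in shSRSF3 for 8 of 8, and for 68.8% of all tested rows.

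The libraries differed in the sum of FPKM over the mRNA table, which was 336887, 308101 and 287148 in shSRSF3 libraries 1 to 3, against 285701, 284236 and 275359 in control libraries 1 to 3. HSPA8, HSPB1, BAG3 and HSPD1 were highest within their group in shSRSF3 library 1, the one with the largest sum. The 10 heat shock genes made up 0.719%, 0.728% and 0.785% of that sum in shSRSF3 libraries, against 0.749%, 0.765% and 0.790% in controls, and the groups overlapped. The part of these sums in the single gene values was not tested beyond the scalings named.

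**Figure D1:**
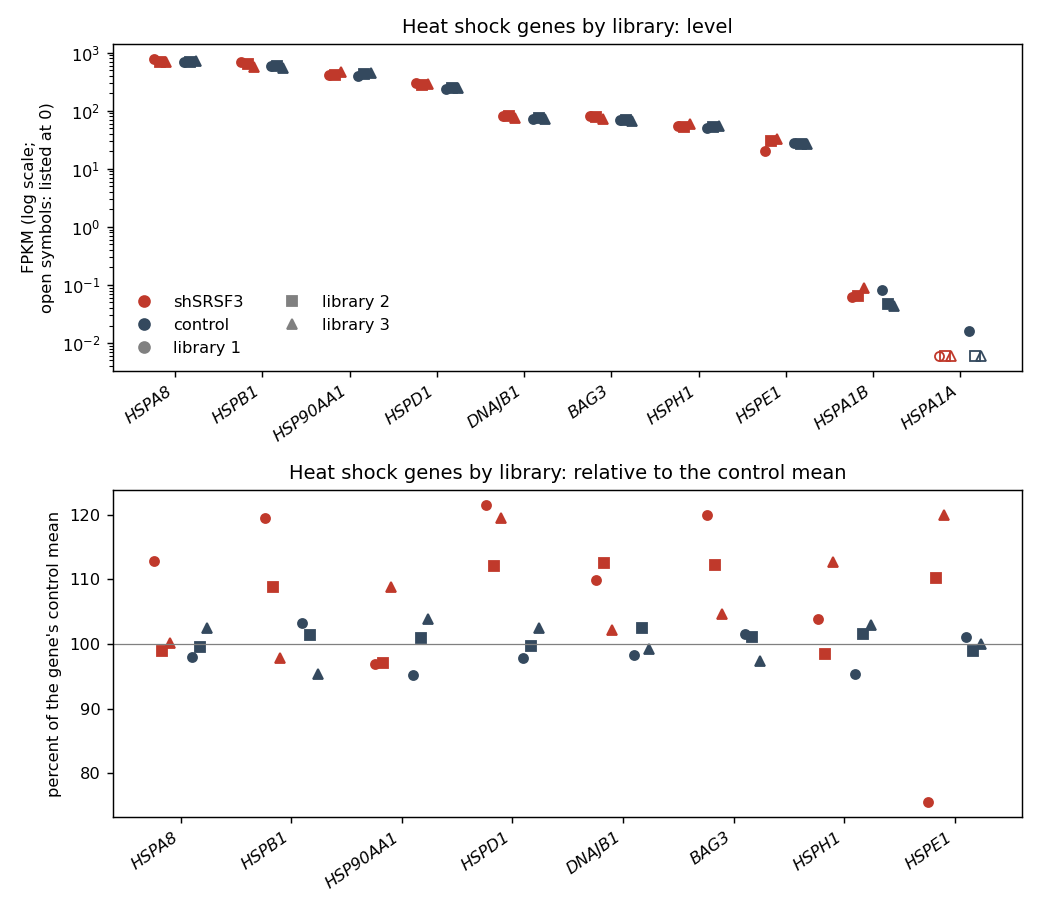
Level of each heat shock gene in each library. Upper panel: FPKM on a log axis, shSRSF3 (red) left of control (dark), symbol shape by library number, open symbols for values listed at 0. Lower panel: the 8 tested genes as percent of the gene's control mean (100 marks that mean; the axis does not start at 0). HSPD1 and BAG3 have all red symbols above all dark ones; HSPE1 in shSRSF3 library 1 lies far below the rest.

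Among the HSP70 genes, HSPA8, the constitutive cytosolic HSP70, was the most abundant of the 10. It had 783.1, 685.5 and 694.2 FPKM in shSRSF3 libraries 1 to 3, against 679.3, 690.2 and 710.8 FPKM in control libraries 1 to 3. Only shSRSF3 library 1 stood above the controls, and the groups overlapped. These values rest on 80897 to 97276 fragments per library, so counting error is small beside the spread between libraries. The log2 change was 0.05 (SE 0.07, limma adjusted p = 0.643), with a 95% interval from -7.28% to 16.2%. After quantile normalization HSPA8 was called lower (log2 -0.15, limma adjusted p = 0.00889), and without shSRSF3 library 1 it was -0.0073.

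HSPA1A and HSPA1B, the classic heat-inducible HSP70 genes, are near-identical neighbours on chromosome 6. HSPA1A was listed at 0 in all libraries except control library 1, where it was 0.0164 FPKM. HSPA1B was listed at 0.0619, 0.0637 and 0.0872 FPKM in shSRSF3 libraries 1 to 3 and at 0.0808, 0.0466 and 0.0435 FPKM in control libraries 1 to 3, which corresponds to 4, 4 and 6 fragments and to 5, 3 and 3 fragments. Their summed level differed by 0.0085 FPKM between the groups (exact permutation test, two-sided, p = 0.6, smallest possible p = 0.1). Reads that match both copies equally can be lost or split in counting, and how the authors handled them is not stated; its part in these values was not tested. The low values are shared by the genes around them. Of the 40 nearest protein-coding rows in the RefSeq gene order, 20 on either side of HSPA1A, 39 (97.5%) had a mean under 0.1 FPKM. Around the other 8 heat shock genes that share was 22.5% to 57.5%, and over all protein-coding rows matched it was 35.3%. LSM2, of the core splicing machinery, and CLIC1 and NELFE were listed at 0 in all 6 libraries, and CSNK2B, a subunit of casein kinase 2, reached at most 0.106 FPKM. These are genes that most cells use, so HSPA1A and HSPA1B are given as listed values and not as a level of expression. LSM2, CLIC1, NELFE and CSNK2B were chosen after their values were seen.

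**Figure D2:**
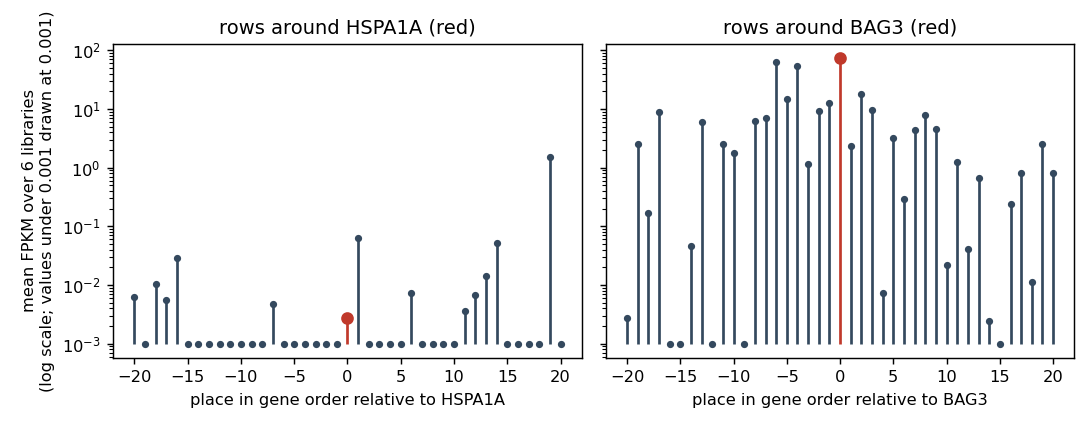
Mean FPKM over 6 libraries (log axis, values under 0.001 drawn at 0.001) of the 20 protein-coding rows on either side of HSPA1A (left) and of BAG3 (right), by place in the gene order; the centre gene is red. Around HSPA1A 39 of 40 neighbours lie under 0.1 FPKM, around BAG3 12 of 40.

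The promoters of this pair are shown to let the copies be compared: over 249 aligned bases before the start, 94.4% were identical. Capitals mark the 2-unit match, which both carry.
HSPA1A, chr6:31815293-31815542, plus strand: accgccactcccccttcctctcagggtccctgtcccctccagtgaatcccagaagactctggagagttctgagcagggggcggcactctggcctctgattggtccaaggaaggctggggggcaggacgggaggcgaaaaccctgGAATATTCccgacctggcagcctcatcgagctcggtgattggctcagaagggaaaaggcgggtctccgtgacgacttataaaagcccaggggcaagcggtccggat
HSPA1B, chr6:31827488-31827737, plus strand: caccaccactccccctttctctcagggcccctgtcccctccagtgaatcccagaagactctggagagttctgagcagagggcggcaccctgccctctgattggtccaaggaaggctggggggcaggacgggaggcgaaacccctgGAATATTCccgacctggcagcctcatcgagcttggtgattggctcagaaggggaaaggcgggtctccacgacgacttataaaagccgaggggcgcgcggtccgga

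Next come the HSP70 partners. BAG3, which couples HSP70 to selective autophagy, had 82.6, 77.3 and 71.99 FPKM in shSRSF3 libraries 1 to 3, against 69.9, 69.5 and 67.1 FPKM in control libraries 1 to 3. Its groups did not overlap, as for HSPD1; among all tested rows 22.6% were higher in shSRSF3 without overlap and 15.3% were lower without it, against 2 and 0 of the 8 heat shock genes. The log2 change of BAG3 was 0.16 (SE 0.06, limma adjusted p = 0.0776), short of the threshold. It passed without shSRSF3 library 3 (log2 0.21, adjusted p = 0.0156), and after quantile normalization it was 0.06 (adjusted p = 0.297).

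DNAJB1, the J-domain protein that feeds clients to HSP70, had 79.9, 81.8 and 74.3 FPKM in the shSRSF3 libraries, against 71.5, 74.5 and 72.1 FPKM in controls. The lowest shSRSF3 value lay below the highest control value. The difference was 0.11 on the log2 scale (SE 0.05, limma adjusted p = 0.166), which missed the threshold. Without shSRSF3 library 3 the adjusted p was 0.0402, with a log2 change of 0.15. HSPH1 (HSP110), which helps HSP70 pull apart aggregates, had 54.6, 51.8 and 59.3 FPKM in shSRSF3 libraries, against 50.2, 53.4 and 54.2 FPKM in controls. Its groups overlapped, and the log2 change was 0.07 (SE 0.06, limma adjusted p = 0.454), with 0.017 to 0.11 when 1 library was left out and -0.01997 after quantile normalization.

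HSP90AA1, the stress-inducible cytosolic HSP90, had 409.0, 409.5 and 459.1 FPKM in shSRSF3 libraries 1 to 3, against 401.2, 425.7 and 438.2 FPKM in control libraries 1 to 3. Library 3 was the highest within each group, and the groups overlapped. The log2 change was 0.01 (SE 0.07, limma adjusted p = 0.917), with a 95% interval from -9.29% to 12.2%. HSP90AB1, the constitutive HSP90 and the more abundant of the pair, had 1544, 1459 and 1326 FPKM in shSRSF3 libraries and 1209, 1218 and 1176 FPKM in controls. The groups did not overlap, yet the log2 change of 0.26 (SE 0.08) just missed the threshold (limma adjusted p = 0.0522). It passed in 6 of 14 alternatives, among them limma voom on whole fragments (adjusted p = 0.0154), removal of shSRSF3 library 1 (0.0428) and removal of shSRSF3 library 3 (0.00998). After quantile normalization the log2 change was 0.017 (adjusted p = 0.705). The ratio of HSP90AB1 to HSP90AA1 was 3.78, 3.56 and 2.89 in shSRSF3 libraries, against 3.01, 2.86 and 2.68 in controls, so shSRSF3 library 3 fell within the range of the controls.

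HSPB1, the small heat shock protein, had 694.8, 633.5 and 569.1 FPKM in shSRSF3 libraries 1 to 3, against 600.6, 590.02 and 554.6 FPKM in control libraries 1 to 3. shSRSF3 libraries 1 and 2 were above the controls and the other lay among them. The log2 change was 0.12 (SE 0.08, limma adjusted p = 0.347). It was 0.027 after quantile normalization and 0.046 to 0.19 when 1 library was left out. Of 9 other genes listed as small heat shock proteins, HSPB11 alone passed the filter, with a log2 change of 0.06 (limma adjusted p = 0.398, and -0.0167 after quantile normalization). HSPB11 was listed by its symbol, and whether it acts as a chaperone was not checked.

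Of the mitochondrial chaperonin genes, HSPD1 was called and HSPE1 was not; the difference between their changes was not tested. HSPD1 had 298.02, 274.8 and 293.2 FPKM in shSRSF3 libraries 1 to 3, against 240.03, 244.6 and 251.1 FPKM in control libraries 1 to 3. All shSRSF3 values lay above all control values, with 25023 to 33977 fragments per library. The group levels were 288.7 ± 12.2 FPKM in shSRSF3 and 245.3 ± 5.59 FPKM in controls (SD, n = 3 each). The log2 change was 0.23 (SE 0.06, limma adjusted p = 0.0216), with a 95% interval from 7.69% to 28.4%. The direction held in all 14 alternatives, but the call was lost without control library 1, 2 or 3 (adjusted p = 0.0879, 0.107 and 0.0708), after quantile normalization (0.0775, log2 0.14) and with no filter (0.0504).

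HSPE1, the lid of the same chamber, had 20.5, 29.9 and 32.5 FPKM in shSRSF3 libraries 1 to 3, against 27.4, 26.8 and 27.1 FPKM in control libraries 1 to 3. The shSRSF3 libraries stood on both sides of the controls, with library 1 lowest and libraries 2 and 3 above. In fragments, shSRSF3 library 1 held 1036, against 1330 to 1465 in the controls. The log2 change was 0.0005 (SE 0.13, limma adjusted p = 0.998). The 95% interval ran from -18.03% to 22.1%, so a change of the size seen for HSPD1 lies within it. Without shSRSF3 library 1 HSPE1 was called higher, with a log2 change of 0.20 (limma adjusted p = 0.0325). The ratio of HSPD1 to HSPE1 was 14.6 in that library, against 9.20 and 9.02 in the other shSRSF3 libraries and 8.76, 9.14 and 9.27 in controls. The row HSPE1-MOB4, an annotated readthrough that shares HSPE1 exons, held 5, 4 and 14 fragments in shSRSF3 libraries and 1, 0 and 1 in controls. Reads of HSPE1 and of this row cannot be told apart where they overlap. The numbers above count only fragments given to the readthrough row, and how many shared reads were lost or split was not tested. The readthrough row was chosen after its values were seen.

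**Figure D3:**
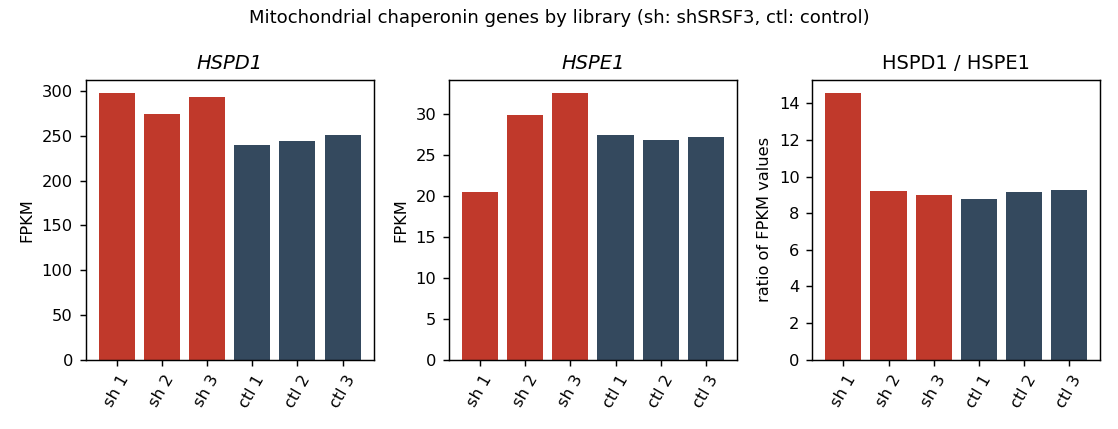
FPKM of HSPD1 and HSPE1 and the ratio of the values, one bar per library, shSRSF3 (sh, red) left of control (ctl, dark), all axes from 0. HSPD1 is higher in each shSRSF3 library, while HSPE1 is 20.5 FPKM in shSRSF3 library 1 and the ratio there is 14.6, against 8.76 to 9.27 in controls.

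By mean level over the 6 libraries, per kilobase, the order was HSPA8 (707.2 FPKM), HSPB1 (607.1), HSP90AA1 (423.8), HSPD1 (267.0), DNAJB1 (75.7), BAG3 (73.04), HSPH1 (53.9), HSPE1 (27.3), HSPA1B and HSPA1A, the final pair as listed values only. HSPA8 ranked 30 among the 19912 rows. The neighbours in that order DNAJB1 and BAG3 lay within their SD in shSRSF3 libraries, at 78.6 ± 3.89 and 77.3 ± 5.28 FPKM, and apart by more than either SD in controls, at 72.7 ± 1.59 and 68.8 ± 1.54 FPKM (n = 3 each). In FPKM, HSPD1, the subunit of the chamber, stood about an order of magnitude above its lid HSPE1 in each library. Levels of different genes depend on the lengths used, recovered here as 4245 bases for HSPD1 and 1977 for HSPE1. The part of length and of lost reads in these differences between genes was not tested.

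**Figure D4:**
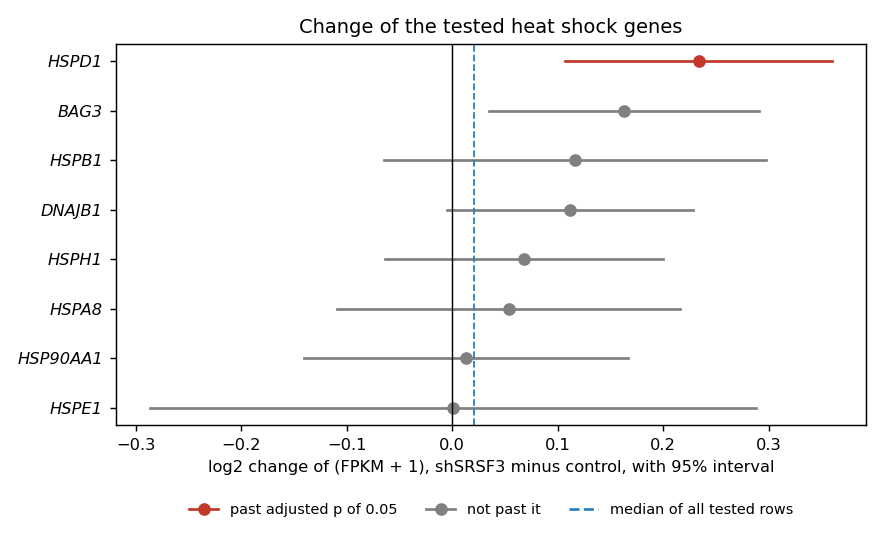
Log2 change of (FPKM + 1), shSRSF3 minus control, with the 95% interval of the limma fit, for the 8 tested heat shock genes; red marks an adjusted p under 0.05. The interval of HSPD1 runs from 0.11 to 0.36, and the dashed line is the median of all tested rows, 0.02.

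Related genes in 10 lists, chosen with earlier results of these data known, were read in the same fit. Over all tested rows 10.9% were called higher and 5.91% lower, with a median log2 change of 0.02. With the filter raised to 5 FPKM, 1207 of 6311 rows were higher and 459 lower, with a median of 0.05. Lists of abundant genes are therefore set below against a background that is low for their level. No list count was tested against either background. The heat shock factors and regulators of the response showed no call: of 6 tested, 0 rose and 0 fell (limma adjusted p), with a median log2 change of -0.11. At an unadjusted p under 0.05 the counts were 0 higher and 2 lower, and limma voom on whole fragments called 0 in either direction. HSF2, a second heat shock factor, stood at 5.78 ± 1.03 FPKM in shSRSF3 libraries and 5.62 ± 0.220 FPKM in controls (SD, n = 3 each). HSF1 was listed at 0 in all 6 libraries, with 25.0% of its 40 neighbours under 0.1 FPKM, and no level is given for it. HSPA6, an HSP70 gene that is nearly silent until stress in human cells, stood at 1.202 ± 0.168 FPKM in shSRSF3 libraries and 1.15 ± 0.160 FPKM in controls (log2 change 0.03, limma adjusted p = 0.818). Of 17 other heat-inducible genes tested, 4 rose and 0 fell, with a median of 0.07. They were RGS2, a regulator of G-protein signalling, at 7.51 ± 0.282 FPKM in shSRSF3 and 4.16 ± 0.531 FPKM in controls (log2 0.73, adjusted p = 0.000424), and FKBP4, TCP1 and STIP1, each of which also stands in a chaperone list. The calls of FKBP4, TCP1 and STIP1 were lost when control library 1, 2 or 3 or shSRSF3 library 2 was left out (adjusted p = 0.0517 to 0.13), and with no filter. Quantile normalization also removed the calls of FKBP4 (log2 0.10, limma adjusted p = 0.0935) and TCP1 (log2 0.048, adjusted p = 0.585). STIP1 kept its call there (log2 0.21, adjusted p = 0.0181).

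In the list of other HSP70 and HSP40 genes, 2 of 20 rose and 2 fell. The list is labelled cytosolic, but the place of each protein, HSPA13 among them, was not checked. HSPA4, an HSP110 relative of HSPH1, stood at 53.8 ± 2.49 FPKM in shSRSF3 libraries and 45.3 ± 2.02 FPKM in controls (log2 0.24, limma adjusted p = 0.0161). DNAJC9, a histone-binding J-domain protein, stood at 9.004 ± 0.478 FPKM in shSRSF3 and 11.4 ± 0.717 FPKM in controls (log2 -0.31, adjusted p = 0.00865). HSPA13 stood at 9.13 ± 0.987 FPKM in shSRSF3 and 11.6 ± 0.792 FPKM in controls (log2 -0.32, adjusted p = 0.0199). All 4 calls of that list were lost in at least 1 alternative. Of 9 nucleotide exchange factors and cochaperones, 3 rose and 0 fell. HSPBP1, an exchange factor for HSP70, kept its call in all 14 alternatives, at 62.9 ± 1.95 FPKM in shSRSF3 and 49.9 ± 2.25 FPKM in controls (log2 0.33, adjusted p = 0.00332).

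Of 16 HSP90 genes and cochaperones, 5 rose and 2 fell, against 10.9% higher and 5.91% lower over all tested rows, and 5 of the 7 calls held in all 14 alternatives. At the raised filter of 5 FPKM, 1207 of 6311 rows were higher and 459 lower. UNC45A, a myosin chaperone that binds HSP90, fell to 14.6 ± 1.07 FPKM in shSRSF3 libraries, against 25.9 ± 1.19 FPKM in controls (SD, n = 3 each; log2 -0.79, limma adjusted p = 4.98e-05). RUVBL1 and RUVBL2, the paired ATPases of the R2TP complex, both rose. RUVBL2 stood at 75.1 ± 4.82 FPKM in shSRSF3 and 57.5 ± 2.62 FPKM in controls (log2 0.38, adjusted p = 0.00347). SGTA, a cochaperone of HSP70 and HSP90, stood at 61.2 ± 3.695 FPKM in shSRSF3 and 48.6 ± 2.84 FPKM in controls (log2 0.33, adjusted p = 0.00741). The median over the list was 0.11.

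Of 13 genes of the cytosolic chaperonin TRiC and its partner prefoldin, 5 rose and 0 fell, with a median of 0.15, against 10.9% higher, 5.91% lower and a median of 0.02 over all tested rows. At the raised filter of 5 FPKM, 1207 of 6311 rows were higher and 459 lower, with a median of 0.05. PFDN2, a prefoldin subunit, was the single one whose call held in all 14 alternatives, at 65.1 ± 2.04 FPKM in shSRSF3 and 52.0 ± 2.10 FPKM in controls (log2 0.32, limma adjusted p = 0.00354). Of 16 other mitochondrial chaperones and proteases, 5 rose and 0 fell, with a median of 0.07. They include TRAP1, the mitochondrial HSP90, at 36.5 ± 2.02 FPKM in shSRSF3 and 29.6 ± 1.502 FPKM in controls (log2 0.29, adjusted p = 0.00886), and the protease subunit CLPP, at 63.9 ± 2.37 and 52.1 ± 2.03 FPKM in those groups (log2 0.29, adjusted p = 0.00627). HSPA9, the mitochondrial HSP70 that hands clients to HSPD1, was not called, at 122.7 ± 3.88 FPKM in shSRSF3 and 115.5 ± 2.28 FPKM in controls (log2 0.09, adjusted p = 0.250). In the endoplasmic reticulum 1 of 14 chaperones rose and 2 fell.

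Immediate early genes, which respond within minutes to handling and other stimuli, were read as a further list. Of 11 tested, 5 rose and 0 fell, with a median of 0.18, against 10.9% higher, 5.91% lower and a median of 0.02 over all tested rows. At the raised filter of 5 FPKM, 1207 of 6311 rows were higher and 459 lower, with a median of 0.05. JUN, a subunit of the AP-1 factor, had a log2 change of 0.47 (limma adjusted p = 0.000273), and EGR1 and MYC had 0.33 each (adjusted p = 0.00203 and 0.00204). IER2 had 0.29 (adjusted p = 0.00863). Their part in the heat shock values was not tested. HSP90AB1, HSF2, HSPA9 and HSPA6 were named after their values were seen.

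**Figure D5:**
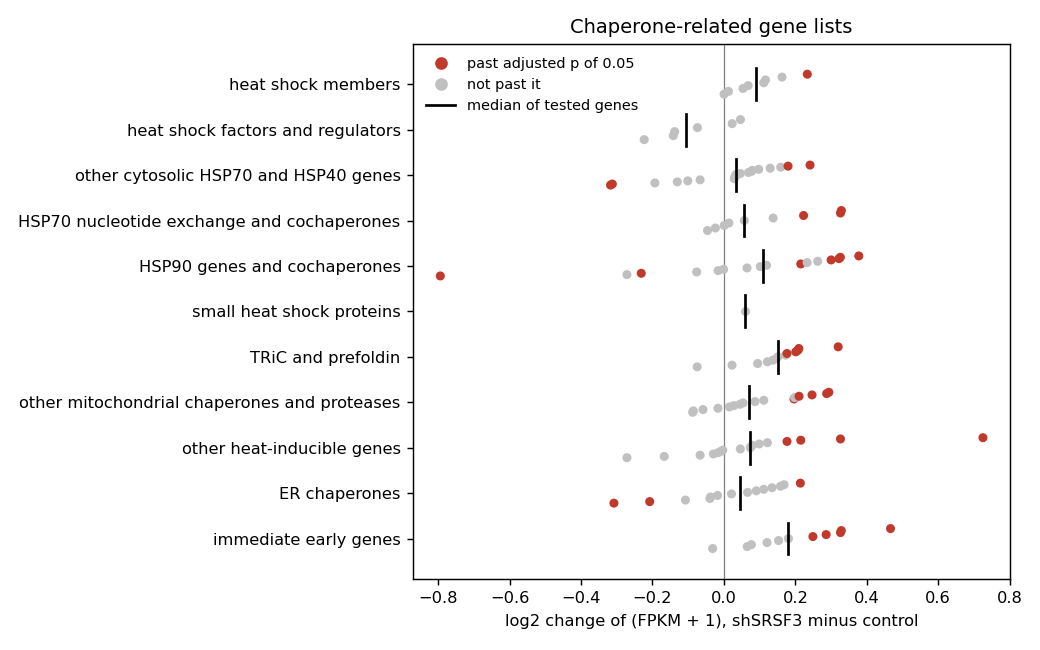
Log2 change of (FPKM + 1), shSRSF3 minus control, for each tested gene of the 10 heat shock genes and of each list, one point per gene; red marks an adjusted p under 0.05 and the black bar the median. The heat shock genes have 1 red point at 0.23, and UNC45A lies farthest left at -0.79.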

How the data were processed

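RNA of 6 libraries was sequenced, and the authors deposited FPKM per gene symbol and library, per the file headers. HISAT2, StringTie, Cuffdiff and edgeR are named, with no role or version, in the submitters' processing notes. The genome build, annotation and handling of strand and of reads matching several genes are unknown here, no label or header naming them. The labels' protocols describe a poly-A and an rRNA-depleted stranded preparation, and which gave these values is not given; overlapping and antisense genes may therefore share reads.

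The 10823 of 19912 rows whose mean reached 0.5 FPKM were tested as log2(FPKM + 1) with limma 3.58.1 (lmFit, eBayes with trend; R 4.3.3), all 6 libraries in a model with group alone, with Benjamini-Hochberg adjustment over all rows tested. The pseudocount understates changes of low genes. Percent intervals come from the limma interval on that scale. A single level was compared with a two-sided exact permutation test. Since FPKM moves in steps of 1 fragment, whole fragments and library totals of 24558238 to 27351642 were recovered for 10793 rows (99.7%) at a tolerance of 0.003 fragments, and tested with limma voom as an alternative. How often limma calls changed or unchanged genes at the spread of these libraries was not tested. Alternatives were a pseudocount of 0.1, no filter, a filter of 5 FPKM, median and quantile normalization, robust eBayes, a replicate block and leaving out each library; the levels of neighbouring genes were added after seeing the data. Text names all 10 heat shock genes, SRSF3 and up to 4 genes per list with the smallest p, besides those said to be chosen later. The members and lists were chosen with earlier results of these data known. The 44 rows with repeated symbols stayed in the fit and out of list counts. Promoters and gene order are from RefSeq GRCh38.p14. A lncRNA table was not used here.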

Additional observations from a re-analysis of the deposited data

How the results depend on the processing

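Over the 8 tested heat shock genes, 14 alternatives each gave 112 values. Of these 90 kept direction and side of the threshold, 5 lost the call, 4 gained one and 13 changed sign. For the 24 other tested list genes named the counts were 299, 24, 6 and 6 of 335, HSPA6 having no value under the filter of 5 FPKM. The cause of these shifts was not tested. The 1819 genes called became 960 with no filter and 647 to 2742 when 1 library was left out. The count of heat shock genes called higher, 1 as reported, was 0 with no filter, 0 after quantile normalization and 0 to 3 when 1 library was left out. The count called lower, 0 as reported, was 1 after quantile normalization, HSPA8. Quantile normalization also turned the sign of DNAJB1 (-0.0055), HSPH1 (-0.01997), HSP90AA1 (-0.096), HSPA8 (-0.15), HSPE1 (-0.077), HSPB11 (-0.0167) and HSPA9 (-0.00803). HSPE1 was -0.00046 with a pseudocount of 0.1 and -0.0037 after median scaling. With 1 library left out the log2 change ran from -0.042 to 0.041 for HSP90AA1, -0.0073 to 0.089 for HSPA8, -0.13 to 0.20 for HSPE1, -0.062 to 0.15 for HSF2 and -0.031 to 0.092 for HSPA6, and the summed difference of HSPA1A and HSPA1B from -0.00092 to 0.026 FPKM. Whether replicate numbers pair the libraries is not settled. Same-numbered deviations correlated at 0.0776, 0.0385 and 0.279. For shSRSF3 libraries 1 and 3 the same-numbered control correlated best, while shSRSF3 library 2 correlated best with control library 1 (0.153). A replicate block called 2323 genes and 2 heat shock genes higher, BAG3 (limma adjusted p = 0.0408) being added to HSPD1. With 3 libraries a group and 1036 to 97276 fragments per tested heat shock gene and library, spread between libraries limits these comparisons more than depth does. HSPE1 in controls is an exception, with a coefficient of variation of 1.14% on 1330 to 1465 fragments per library. There counting error is not small beside the spread. In the 5 libraries where HSPA1A is at 0 fragments, that count allows up to 3 fragments, or 0.0442 to 0.0485 FPKM, by counting error alone.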
